A study of Homo sapiens with 12 samples.

Results

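The integrin and laminin genes were followed through single and repeated interferon exposure of AC16 cells, a human line with some features of ventricular cardiomyocytes. Members were taken by a rule on gene symbols: the integrin α and β chains and the laminin α, β and γ chains. The family itself was chosen with earlier results of these data known. The rule found 37 genes, 25 integrins and 12 laminins, among 60649 gene identifiers. Expression was measured by poly(A) RNA sequencing in 12 libraries of the wild-type line, 3 in each of 4 groups. The vehicle group was given phosphate-buffered saline for 24 h. The acute group was exposed for 24 h to interferon alpha-2a (recombinant, 1000 U/mL), a member of the type I interferons, and collected right after. In the recovery group the same exposure was followed by 5 interferon-free days, and cells were collected on day 6. In the repeat group 4 interferon-free days separated a first and a second exposure, each of 24 h. The repeat libraries are labelled as collected on day 7, although the stated times add to 6 days. The vehicle libraries are labelled 24 h, so treatment and time in culture cannot be told apart wherever recovery or repeat is set against vehicle or acute. Repeat and recovery also differ in labelled day (7 and 6) and in interferon-free days (4 and 5). Acute against vehicle is the comparison with matched labelled times.

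Integrins are receptors made of an α and a β chain that join the extracellular matrix to the actin cytoskeleton and signal in both directions across the membrane. Laminins are trimers of an α, a β and a γ chain and are the main adhesive proteins of basement membranes. In the heart, cardiomyocytes rest on a laminin-rich basement membrane, and their laminin-binding integrins share the β1 chain. Laminin-332, which holds the α3 and β3 chains, is known mainly from epithelia, where the integrin α6β4 binds it in hemidesmosomes.

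AC16 was made by fusing adult ventricular cells with virus-transformed fibroblasts, and its cells divide in culture. Of 15 cardiomyocyte markers, 11 had a mean below 10 counts. TNNT2, cardiac troponin T, was at most 0.245 CPM (counts scaled to library size) and MYL7 was at 0 in all 12 libraries. All 11 fibroblast markers passed the filter on low counts, and most were lower in the treated groups: against vehicle, 1 was higher and 8 lower in acute (median log2 -0.36), 1 higher and 9 lower in recovery (-0.22), and 1 higher and 9 lower in repeat (-0.59). Of all genes tested, 22.3%, 3.03% and 23.4% were higher and 21.5%, 2.91% and 22.9% lower, in the same order. The summed TPM of the fibroblast markers was 4890 to 5090 in vehicle, 4820 to 4970 in acute, 4900 to 4950 in recovery and 4690 to 4810 in repeat, and their part in the members' results was not tested. The libraries held between 39.94 M and 62.28 M estimated counts. The interferon-induced genes MX1 and ISG15 matched the treatment labels: MX1 was at 2.92 to 8.02 CPM in the vehicle and recovery libraries and at 767 to 814 CPM in the acute and repeat libraries. In recovery MX1 was still above vehicle without overlap (log2 1.08 ± 0.137, edgeR adjusted p = 0.00101). The growth protocol and the design text name different media. In bulk RNA, fewer cells of a type and less RNA per cell cannot be told apart.

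The promoters of ITGA2 and LAMB3, the called members that rose most, of ITGA5, the fibronectin receptor chain that rose with each pulse, and of LAMA3, a laminin-332 chain that moved the other way in counts, are shown as the 250 bases before the start listed by RefSeq on GRCh38.p14. They are written 5′ to 3′ on the strand of the gene. Capitals mark matches on either strand to the motifs searched: a GC box (GGGCGG), an AP-1 site (TGANTCA) and a TEAD site (GGAATG). The ITGA2 window is chr5:52989102-52989351 (plus strand), that of LAMB3 is chr1:209652426-209652675 (minus strand), that of ITGA5 is chr12:54419267-54419516 (minus strand) and that of LAMA3 is chr18:23872770-23873019 (plus strand).
ITGA2: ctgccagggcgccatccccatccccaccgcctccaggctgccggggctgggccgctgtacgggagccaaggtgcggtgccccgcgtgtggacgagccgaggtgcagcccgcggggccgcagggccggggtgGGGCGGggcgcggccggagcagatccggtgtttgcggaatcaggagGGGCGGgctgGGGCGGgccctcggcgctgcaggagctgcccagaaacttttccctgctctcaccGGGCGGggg
LAMB3: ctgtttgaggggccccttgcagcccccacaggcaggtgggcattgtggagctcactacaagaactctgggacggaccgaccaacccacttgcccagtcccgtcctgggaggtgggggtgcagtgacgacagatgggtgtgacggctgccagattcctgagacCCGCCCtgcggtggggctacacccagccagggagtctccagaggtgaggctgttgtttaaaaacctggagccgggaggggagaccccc
ITGA5: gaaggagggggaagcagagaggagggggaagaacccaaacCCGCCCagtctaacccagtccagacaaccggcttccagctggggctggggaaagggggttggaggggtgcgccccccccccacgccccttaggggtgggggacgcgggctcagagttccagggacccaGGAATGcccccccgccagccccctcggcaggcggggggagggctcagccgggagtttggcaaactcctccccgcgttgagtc
LAMA3: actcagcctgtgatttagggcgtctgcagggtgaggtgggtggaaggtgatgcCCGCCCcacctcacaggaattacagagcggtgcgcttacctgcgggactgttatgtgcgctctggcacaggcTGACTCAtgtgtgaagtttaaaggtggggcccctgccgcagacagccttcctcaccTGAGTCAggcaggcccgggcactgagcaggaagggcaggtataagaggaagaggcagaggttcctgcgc
The ITGA2 window held 4 GC boxes and the LAMB3 window 1. The ITGA5 window held 1 GC box and 1 TEAD match. The LAMA3 window held 2 AP-1 matches, from -125 to -119 and from -69 to -63 relative to the start, and lies inside the longer LAMA3 gene body annotated by GENCODE. RefSeq promoters were matched for 26 of the 37 members. The core of the interferon-stimulated response element, searched as GAAA repeated after a gap of 2 bases, was in 0 of those 26 windows and in 3.07% of all 27305 promoter windows searched. The GAS motif (TTCNNNGAA), also known from interferon signalling, was in 2 of 26, ITGAE and LAMB2, against 6.78% of all windows. AP-1 was in 1 of 26 (6.60% of all), TEAD in 4 of 26 (11.9%) and the GC box in 13 of 26 (42.3%). All motifs were searched on both strands, and a match describes letters, not binding.

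Of the 37 members, 30 passed the filter on low counts. The other 7 were ITGA9, ITGAL, ITGAM, ITGB2, ITGB6, ITGB7 and LAMB4, and each had a mean below 10 counts over the libraries. LAMC3 also had a mean below 10 counts (8.08) although it passed. In TPM, which scales counts by library size and gene length, ITGB1 was highest of the members with a mean of 1120, followed by LAMB1 at 475, LAMC1 at 223, ITGA3 at 196, LAMB2 at 119 and ITGA5 at 115. By mean TPM the most abundant α, β and γ laminin chains were therefore LAMA4 (22.2), LAMB1 and LAMC1. The order of genes depends on the scaling by gene length. Without it, LAMA1 lay above LAMA4 (means of 45.1 and 32.6 CPM, counts scaled to library size only) and LAMC1 above LAMB1 (533 and 323 CPM). ITGA2 had a mean of 12.5 TPM and LAMB3 of 17.6 TPM. ITGB1 reads may be split with its processed pseudogene ITGB1P1, which was listed at 248 to 331 TPM, so its level is uncertain.

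**Figure D1:**
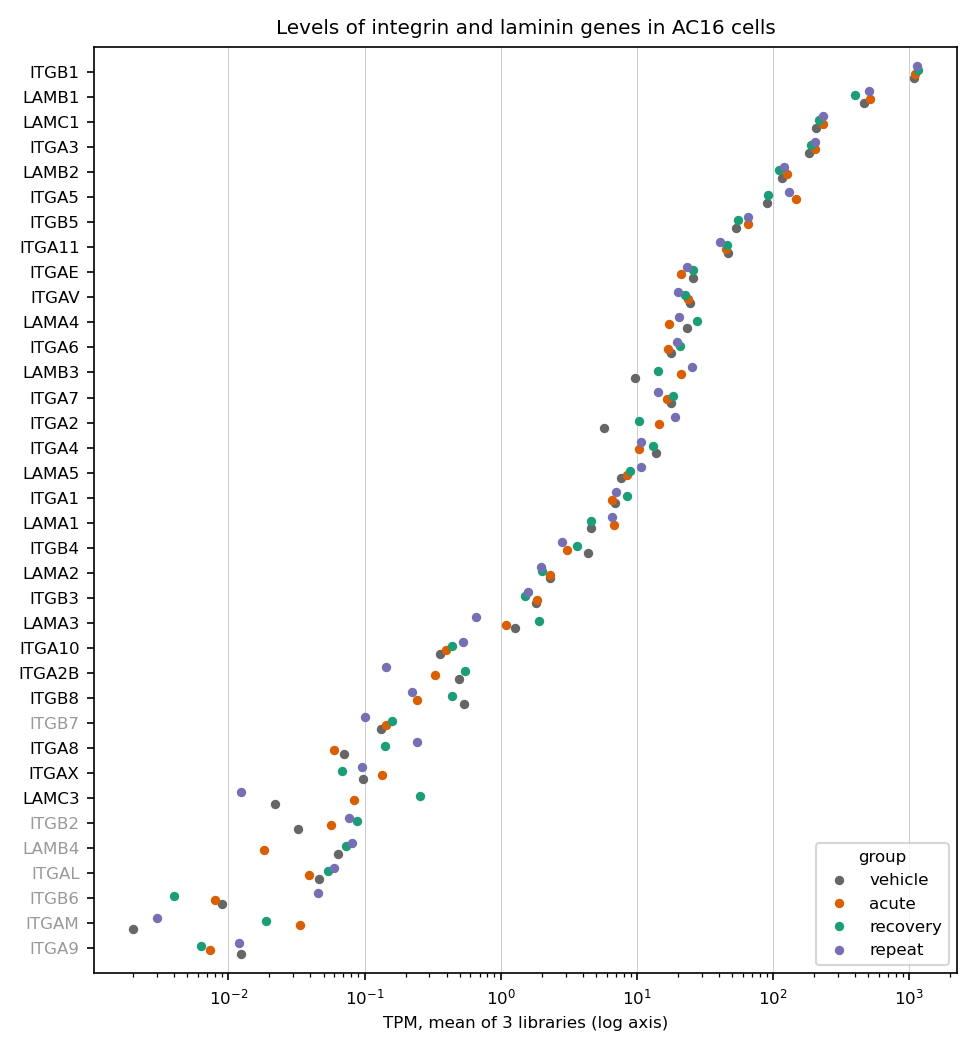
Mean TPM of the members reported in each group, on a log axis, with members ordered by level. ITGB1 leads at a mean of 1120 TPM over the 12 libraries, and ITGA9 is lowest at 0.0095. Grey names mark the 7 members that did not pass the filter.

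With a single pulse, 23 of the 30 tested members changed, 10 higher and 13 lower (edgeR quasi-likelihood test, adjusted over all genes by Benjamini-Hochberg, called at an adjusted p under 0.05). Of all 18119 genes tested 43.8% were called, 22.3% higher and 21.5% lower. The median log2 fold change of the members was -0.02 and their median absolute change was 0.27, against 0.17 over all genes. Those that rose included ITGA2, ITGA3, ITGA5, ITGB5, LAMA1, LAMB1, LAMB2, LAMB3 and LAMC1. The 13 that fell were ITGA1, ITGA4, ITGA6, ITGA7, ITGA11, ITGA2B, ITGAE, ITGAV, ITGB4, ITGB8, LAMA2, LAMA3 and LAMA4. The acute and vehicle libraries did not overlap for 23 members (52.8% of all genes). The counts and TPM imply a gene length for each library, and it varied between libraries for some members. When it was taken into account, either as an offset in edgeR or by testing log2(TPM + 1) with limma, which understates changes of low genes, 11 members were called, among them ITGA2, LAMB3, ITGA5, LAMA1, ITGA4, LAMA4 and ITGB8. Over all genes, 4417 were called with the offset and 4344 with limma, against 7938 in the main fit.

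**Figure D2:**
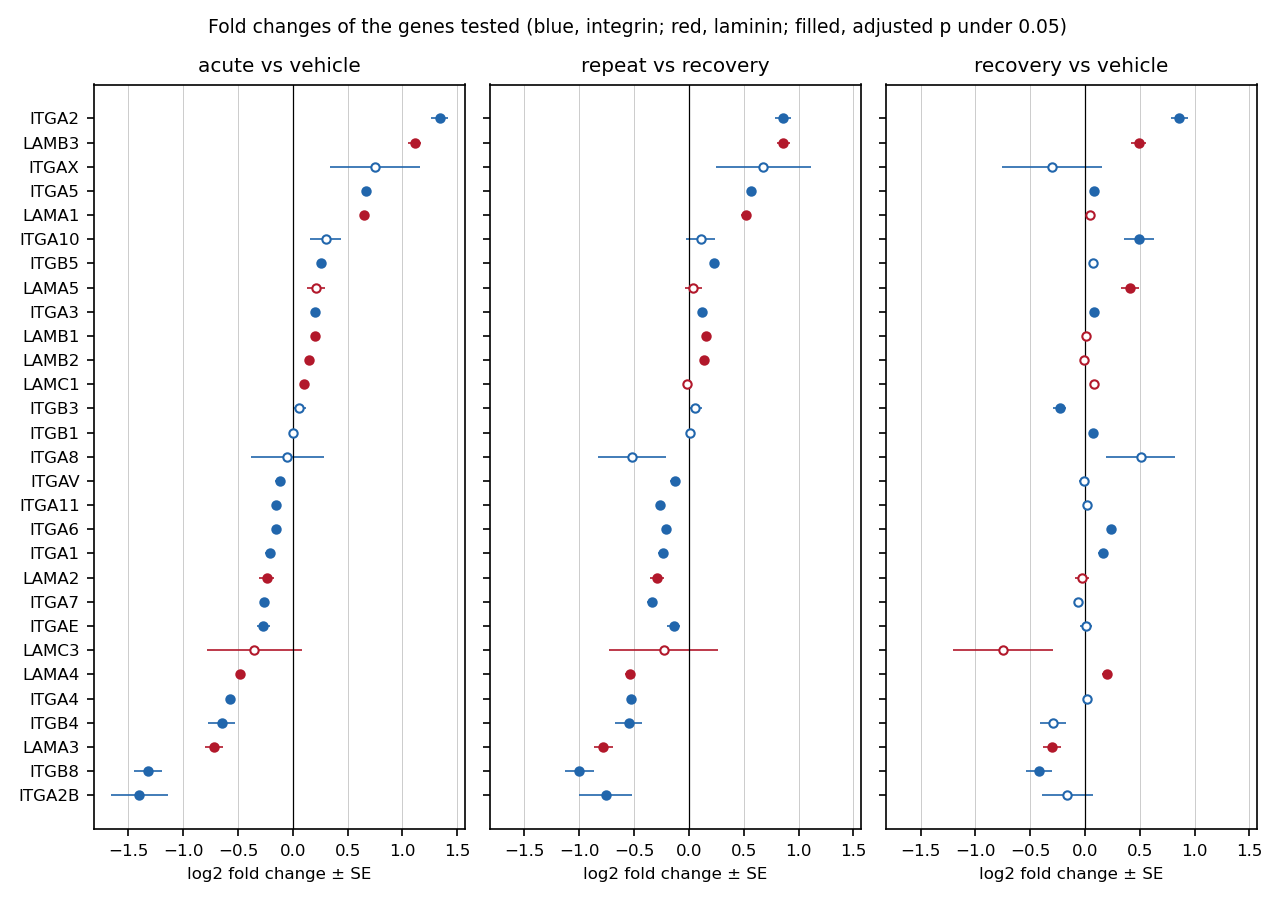
Log2 fold change with its standard error for the tested members reported in acute against vehicle, repeat against recovery and recovery against vehicle, from the edgeR fit of all 12 libraries. ITGA2 and LAMB3 extend farthest to the right in acute against vehicle (1.34 and 1.11) and ITGA2B and ITGB8 farthest to the left (-1.40 and -1.32).

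Among the collagen-binding α chains, ITGA2 rose and 2 of the others fell. ITGA2 encodes the α2 chain of α2β1, a receptor for collagens and for some laminins. It stood at 55.8, 56.4 and 61 CPM in the vehicle libraries, 146, 145 and 146 in acute, 102, 96.5 and 116 in recovery, and 200, 178 and 194 in repeat. No 2 groups overlapped. The single pulse raised ITGA2 2.53-fold (log2 1.34 ± 0.0755 SE, adjusted p = 5.44e-07, edgeR). In recovery it was still 1.82-fold above vehicle (log2 0.86 ± 0.077, edgeR adjusted p = 0.000212) and below acute (log2 -0.47 ± 0.0716, adjusted p = 0.000608). Of the acute-minus-vehicle difference in mean CPM, 53.6% was present in the mean of the recovery libraries, and 44.1 to 66.3% in each. This was the largest called recovery-minus-vehicle change among the members, with the recovery group labelled 5 days after interferon was withdrawn.

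ITGA10, another collagen-binding chain, was a low-abundance gene with 1.96, 1.58 and 1.82 CPM in vehicle, 2.12, 2.38 and 2.14 in acute, 2.53, 2.17 and 2.87 in recovery, and 2.61, 2.85 and 2.74 in repeat. Its acute value was above vehicle by 0.30 ± 0.14 on the log2 scale and did not pass (edgeR adjusted p = 0.0888). Repeat against vehicle passed at 0.61 ± 0.136 (edgeR adjusted p = 0.000494), but not with gene length taken into account (adjusted p = 0.0961 with the offset). Recovery against vehicle was called at 0.49 ± 0.138 (adjusted p = 0.0308, edgeR), but not without vehicle replicate 2 or 3 or recovery replicate 1 or 3 (adjusted p 0.0646 to 0.19). The more abundant ITGA1 and ITGA11, receptors for basement membrane and fibrillar collagens, fell modestly with the pulse (log2 -0.21 and -0.15). Neither call held when gene length was taken into account.

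The make-up of the collagen-binding α transcripts shifted towards ITGA2, whose mean level was 5.74 TPM in vehicle and 14.6 TPM in acute, beside 46.5 and 45.6 TPM for ITGA11. ITGA2 made up 9.65% ± 0.717 (SD, n = 3) of their summed TPM in vehicle, 21.8% ± 0.872 in acute, 15.9% ± 0.778 in recovery and 28.3% ± 0.969 in repeat. ITGA11 went from 78.1% ± 1.90 in vehicle to 67.8% ± 0.283, 70.5% ± 1.24 and 60.4% ± 2.76. The sum itself was 59.6 TPM in vehicle and 67.2, 65.5 and 67.4 TPM in the other groups. By TPM, ITGA11 stayed the most abundant of the 4 in each group. In CPM, which is not scaled by gene length, ITGA2 was above ITGA11 in repeat (means of 190 and 143).

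**Figure D3:**
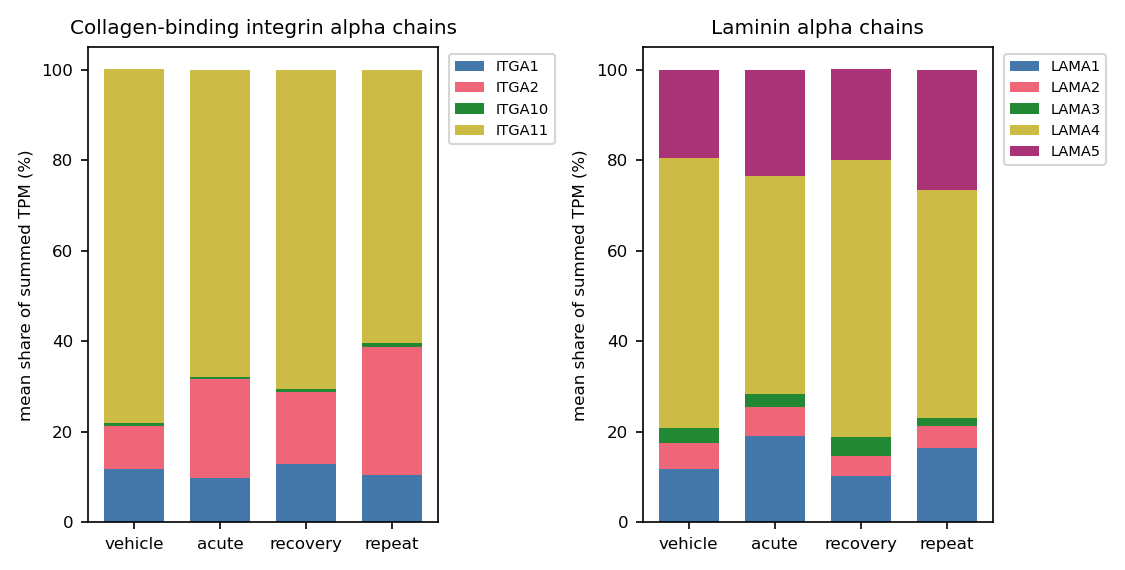
Share of summed TPM held by each chain within its class, for each group. ITGA2 grows from 9.65% of the collagen-binding α chains in vehicle to 28.3% in repeat, and LAMA1 from 11.7% to 16.4% of the laminin α chains, with 19.0% in acute.

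All 4 laminin-binding chains were called with the pulse in counts (43.8% of all genes were), ITGA3 higher and the others lower, and ITGA3 was the one still called with gene length taken into account. ITGA3, which forms α3β1, a receptor for laminin-332 and laminin-511, was the most abundant of the laminin-binding α chains and rose slightly, by 0.20 ± 0.0206 on the log2 scale (edgeR adjusted p = 3.02e-09). ITGA6, the α chain of α6β1 and α6β4, fell by 0.15 ± 0.0291 (edgeR adjusted p = 7.47e-05). In recovery ITGA6 then lay above vehicle (log2 0.24 ± 0.0283, edgeR adjusted p = 1.01e-06). ITGA7, the main laminin receptor chain of muscle, fell by 0.26 ± 0.0433 (edgeR adjusted p = 1.39e-05). The ITGA6 and ITGA7 calls did not hold when gene length was taken into account.

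ITGB4, the hemidesmosomal partner of ITGA6, was at low levels of 3.21, 3.42 and 3.53 CPM in vehicle, 2.17, 2.13 and 2.14 in acute, 3.03, 2.62 and 2.65 in recovery, and 1.88, 1.99 and 1.79 in repeat. Every acute and repeat library was below every vehicle and recovery library. It fell with the pulse by 0.65 ± 0.121 on the log2 scale (edgeR adjusted p = 5.47e-05) and was lower in repeat than in vehicle (log2 -0.84 ± 0.12, adjusted p = 1.24e-06). With gene length taken into account the first of these was not called (adjusted p = 0.0742). Recovery lay above acute (log2 0.36, edgeR adjusted p = 0.0194), a call that was lost without recovery replicate 1 (adjusted p = 0.0962), with DESeq2 (0.0736), with no count filter (0.0664) and with the length offset (0.425).

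Of the 4 RGD-binding α chains, ITGA5 rose with the pulse and ITGAV and ITGA2B fell in counts. ITGA5 is the α chain of α5β1, the main fibronectin receptor. It was at 350, 360 and 368 CPM in vehicle, 561, 575 and 576 in acute, 376, 379 and 382 in recovery, and 570, 557 and 560 in repeat. The acute and repeat libraries were well above the rest, and recovery lay just above vehicle. The pulse raised it 1.59-fold (log2 0.67 ± 0.0211, adjusted p = 2.45e-20, edgeR). In recovery 9.31% of the difference was present, at a log2 fold change of 0.08 ± 0.0213 (edgeR adjusted p = 0.0302). That small call was lost without vehicle replicate 1 or 2 or any of the 3 recovery replicates (adjusted p 0.0568 to 0.229).

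ITGAV, the α chain shared by the vitronectin receptors and the integrins that activate latent TGF-β, fell by 0.12 ± 0.0434 on the log2 scale with the pulse (edgeR adjusted p = 0.0398). The call was lost without vehicle replicate 2 or 3 or acute replicate 1 or 3. ITGA5 rose from 78.1% ± 1.03 to 85.9% ± 0.398 (SD, n = 3) of the summed TPM of the RGD-binding α chains, was back at 79.7% ± 2.17 in recovery and at 86.5% ± 2.55 in repeat. ITGA8, the α chain of the nephronectin receptor, had too few counts to place and was not called in any comparison.

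ITGA2B, the platelet chain that binds fibrinogen with β3, was at the edge of detection in these cells, with 10 to 54 counts per library. It was at 0.946, 1.02 and 0.801 CPM in vehicle, 0.303, 0.253 and 0.489 in acute, 0.762, 0.866 and 0.841 in recovery, and 0.423, 0.501 and 0.536 in repeat. It fell with the pulse (log2 -1.40 ± 0.259, edgeR adjusted p = 5.37e-05), and recovery was back above acute (log2 1.24 ± 0.263, edgeR adjusted p = 0.000327). The gene length implied for it varied by 58.1% (coefficient of variation over libraries), and on log2(TPM + 1) neither the fall (adjusted p = 0.471, limma) nor the return (0.369) passed.

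ITGA4, the α chain of the receptors for VCAM-1 and fibronectin, fell and came back. It was at 69.7, 69.1 and 71.0 CPM in vehicle, 45.5, 47.8 and 47.9 in acute, 69.0, 69.7 and 73.2 in recovery, and 50, 48.3 and 48.6 in repeat. The acute and repeat libraries formed the low group, while recovery overlapped vehicle. The fall was 0.57 ± 0.0315 on the log2 scale (edgeR adjusted p = 9.69e-15). Recovery differed from vehicle by 0.02, with a 95% interval from -0.05 to 0.08. ITGA4 exons overlap those of CERKL on the opposite strand over 26.4% of their length, and the strand setting of the counting is not given in the sources used here. ITGA9, its relative, was below 10 counts.

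Of the β chains, ITGB1, the common partner of most of these α chains, was not called with the pulse. Its acute-minus-vehicle difference was 0.00 on the log2 scale, with a 95% interval from -0.05 to 0.06. ITGB5, which pairs with αV to bind vitronectin, rose by 0.26 ± 0.0298 (edgeR adjusted p = 4.03e-08). ITGB3, the β chain of the αVβ3 receptor, differed from vehicle by 0.06 in acute (edgeR adjusted p = 0.436) and was lower in recovery (log2 -0.23 ± 0.0607, edgeR adjusted p = 0.0219). The recovery call was lost without vehicle replicate 1 or 2 or recovery replicate 1 or 2, and 33.2% of ITGB3 exon bases overlap a second annotated gene on the same strand.

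ITGB8, which pairs with αV to bind latent TGF-β, showed the largest proportional fall of a β chain. It was at 6.85, 5.48 and 5.43 CPM in vehicle, 2.24, 2.40 and 2.49 in acute, 5.09, 3.72 and 4.51 in recovery, and 2.21, 1.96 and 2.51 in repeat. Acute and repeat overlapped each other and lay below all other libraries. The pulse lowered it 2.50-fold (log2 -1.32 ± 0.129, edgeR adjusted p = 1.60e-09). It was 1.34-fold below vehicle in recovery (log2 -0.42 ± 0.12, edgeR adjusted p = 0.0349). That call was lost without vehicle replicate 1 (adjusted p = 0.29), recovery replicate 2 (0.228) or recovery replicate 3 (0.0919), whereas the acute and repeat falls held under every alternative.

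The leukocyte integrins were almost absent. ITGAL, ITGAM, ITGB2 and ITGB7 were below 10 counts and ITGAX had a mean of 0.0990 TPM. ITGAE, the α chain that pairs with β7 on intraepithelial T cells, was the exception at 24.1 TPM and fell by 0.27 ± 0.0592 on the log2 scale (edgeR adjusted p = 0.00038). Of 8 leukocyte markers, CD3E was at 0, and LYZ and ITGAM were below 10 counts. The summed leukocyte marker TPM ranged over 112 to 118 in vehicle, 270 to 295 in acute, 138 to 146 in recovery and 275 to 287 in repeat. CD68, a lysosomal protein, was at 110 to 293 TPM and made up nearly all of it. Its part in the members' results was not tested.

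LAMB3 and LAMA3, chains of laminin-332, moved apart in counts. LAMB3, its β3 chain, was at 30.3, 35.5 and 37.3 CPM in vehicle, 72.9, 72.8 and 76.7 in acute, 46.7, 48.1 and 49.8 in recovery, and 87.3, 84.4 and 90.7 in repeat. As for ITGA2, no 2 groups overlapped and repeat was highest. The pulse raised LAMB3 2.17-fold (log2 1.11 ± 0.0636, adjusted p = 5.89e-08, edgeR). Recovery was 1.41-fold above vehicle (log2 0.49 ± 0.0662, adjusted p = 0.00101, edgeR), with 34.8% of the acute difference present (31.0 to 38.8% by library). LAMB3 was a minor laminin β chain throughout: it made up 1.62% ± 0.154 (SD, n = 3) of summed laminin β TPM in vehicle and 3.15% ± 0.108 in acute.

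LAMA3, the α3 chain, was at 9.11, 9.37 and 7.86 CPM in vehicle, 5.38, 5.34 and 5.24 in acute, 7.08, 7.10 and 7.22 in recovery, and 4.53, 3.88 and 4.04 in repeat. No 2 groups overlapped, and repeat was lowest. In counts it fell by 0.72 ± 0.0815 on the log2 scale with the pulse (edgeR adjusted p = 2.40e-08) and lay 0.30 below vehicle in recovery (adjusted p = 0.0186, edgeR). The implied gene length of LAMA3 varied by 35.0% over libraries, however, and both results depended on it. On log2(TPM + 1) the acute fall was 0.11 and did not pass (adjusted p = 0.586, limma), and recovery lay above vehicle by 0.36 (adjusted p = 0.313, limma). The recovery call in counts was also lost without vehicle replicate 1 or 2 or any recovery replicate. Repeat against vehicle, at -1.08 ± 0.0822 (edgeR adjusted p = 9.07e-12), held under every alternative.

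Of 7 tested epithelial markers 1 rose and 4 fell with the pulse, where 22.3% of all genes were called higher and 21.5% lower. The summed TPM of the epithelial markers was 334 to 342 in vehicle, 267 to 278 in acute, 308 to 325 in recovery and 249 to 265 in repeat. The epithelial genes KRT18, KRT8 and the weakly expressed CDH1 fell with the pulse by 0.38, 0.14 and 0.63 on the log2 scale (edgeR adjusted p = 4.54e-14, 0.00123 and 0.00801). EPCAM was not called and stayed between 0.226 and 0.515 CPM.

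Among the other laminin chains, LAMA1 rose and LAMA4 fell. LAMA1, the α chain of laminin-111, best known from the early embryo, was at 34.8, 35.6 and 36.0 CPM in vehicle, 54.4, 56.9 and 56 in acute, 37.1, 35.1 and 37.8 in recovery, and 56.6, 49.9 and 51.7 in repeat. The recovery libraries overlapped vehicle, and repeat overlapped acute. LAMA1 rose 1.57-fold with the pulse (log2 0.65 ± 0.0407, adjusted p = 4.25e-13, edgeR), and 5.91% of that difference was present in recovery. Recovery against vehicle was 0.05, with a 95% interval from -0.05 to 0.15.

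LAMA4, the α chain of laminin-411 and a chain of vessel and muscle basement membranes, was at 35.0, 35.5 and 36.7 CPM in vehicle, 25.2, 24.8 and 27.0 in acute, 39.9, 39.7 and 43.1 in recovery, and 27.0, 28.2 and 29.0 in repeat. Recovery was the highest group, above every vehicle library. The pulse lowered LAMA4 by 0.48 ± 0.0427 on the log2 scale (edgeR adjusted p = 3.22e-10), and recovery was above vehicle by 0.20 ± 0.0404 (edgeR adjusted p = 0.00201). The recovery call was not made when gene length was taken into account (adjusted p = 0.306). LAMA4 made up 59.6% ± 3.44 (SD, n = 3) of summed laminin α TPM in vehicle, 48.1% ± 2.23 in acute and 61.2% ± 0.377 in recovery, whereas LAMA1 made up 11.7% ± 0.614, 19.0% ± 1.09 and 10.2% ± 0.372.

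LAMB1, LAMB2 and LAMC1, the abundant chains of most laminins, moved little, by 0.20, 0.15 and 0.10 on the log2 scale, all called higher in acute. The LAMB1 and LAMB2 calls were not made when gene length was taken into account. LAMA2, the α chain of muscle laminin-211, fell by 0.24 ± 0.065 in counts (edgeR adjusted p = 0.00344). On log2(TPM + 1) its difference was 0.01 (adjusted p = 0.971, limma). LAMA5, of laminin-511, differed by 0.21 in acute (edgeR adjusted p = 0.066) and was above vehicle in recovery by 0.41 ± 0.0816 (edgeR adjusted p = 0.0122). That call was lost without vehicle replicate 2 or recovery replicate 2 or 3. LAMC3 was not called.

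**Figure D4:**
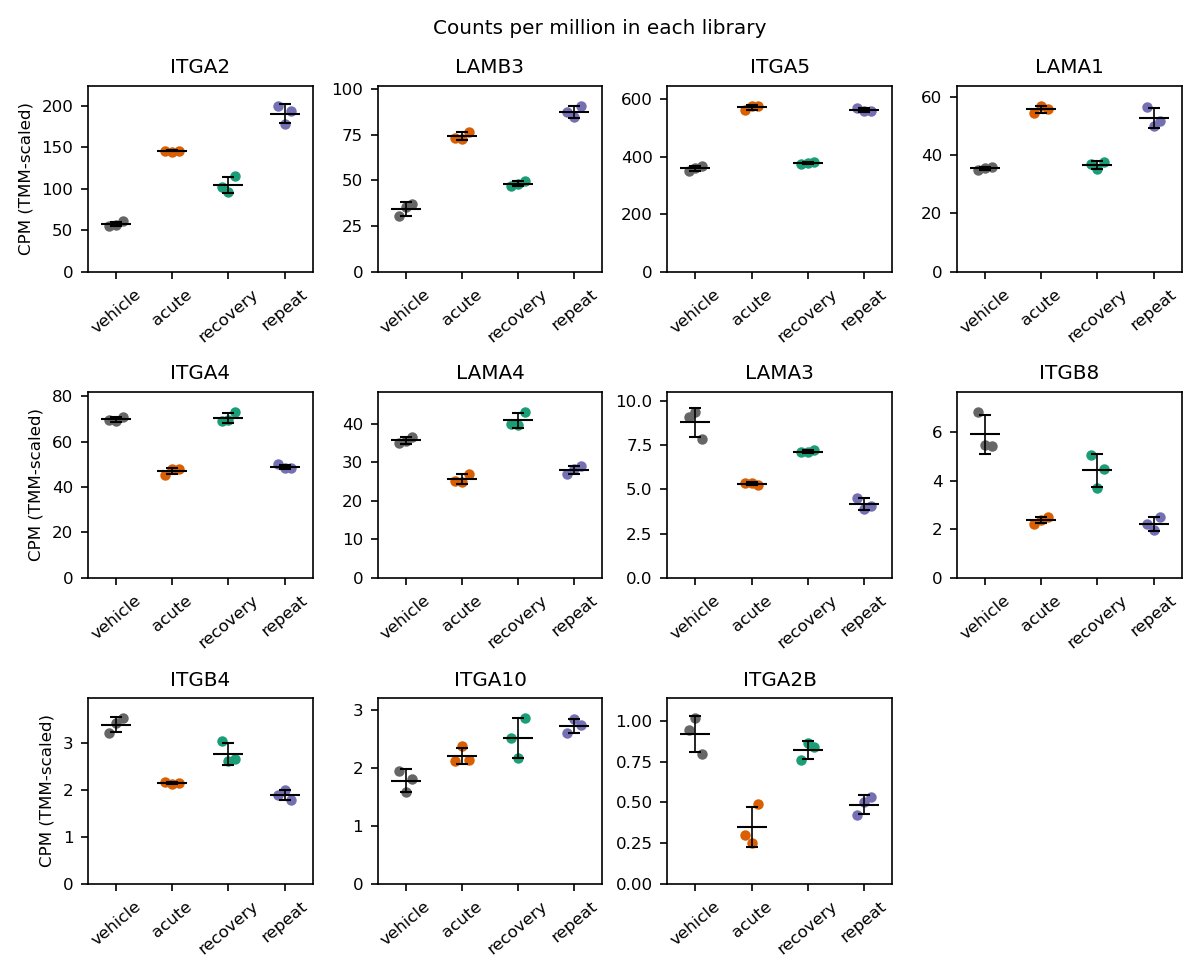
CPM of the 11 members described in full in each library, with group means and SD (n = 3) as bars. ITGA2 and LAMB3 step up from vehicle through recovery and acute to repeat, while ITGA4 and LAMA1 in recovery sit with vehicle.

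At the recovery time point, 14 of 30 members differed from vehicle, 11 higher and 3 lower, where 5.94% of all genes tested were called, 3.03% higher and 2.91% lower. The median absolute log2 difference was 0.16, against 0.07 over all genes, and 17 members had groups that did not overlap (23.6% of all genes). This count was sensitive to single libraries: it was 7 without vehicle replicate 1, 6 without vehicle replicate 2, and 9, 7 and 5 without recovery replicates 1, 2 and 3. Over all genes the calls went from 1076 to 624, 778, 842, 707 and 716, in the same order. ITGA2, LAMB3, ITGA6 and LAMA4 were called in each of those fits. ITGA2 and LAMB3 were the 2 that were also called when gene length was taken into account.

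From acute to recovery, 22 members changed, 13 higher and 9 lower (41.1% of all genes, 20.4% higher and 20.7% lower), and 26 had groups that did not overlap (50.5%). The 9 that were lower included ITGA2, LAMB3 (log2 -0.62), ITGA5 (-0.59) and LAMA1 (-0.60), and the 13 that were higher included LAMA4 (0.67), ITGA4 (0.59) and ITGB8 (0.90). Against vehicle, the repeat group differed for 23 members, 12 higher and 11 lower (46.3% of all genes, 23.4% higher and 22.9% lower), and 25 did not overlap (53.1%). ITGA2 reached 3.30-fold of vehicle (log2 1.72 ± 0.0741, edgeR adjusted p = 6.44e-08) and LAMB3 2.55-fold (log2 1.35 ± 0.062, edgeR adjusted p = 7.23e-09). ITGB8 was 2.68-fold lower.

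The second pulse was read as repeat against recovery, which shares no library with acute against vehicle. Recovery had 5 interferon-free days and repeat had 4 before its second pulse, so recovery is not the state from which that pulse began. Pulse and time cannot be told apart in this comparison. Repeat differed from recovery for 21 members, 8 higher and 13 lower (41.6% of all genes, 21.1% higher and 20.5% lower), and 20 did not overlap (49.4%). All 21 had also been called in the same direction with the first pulse. Over all genes, 6125 (33.8%) were called in both pulses, and 99.8% of them in the same direction. ITGA2 rose 1.81-fold from recovery to repeat (log2 0.86 ± 0.0701, edgeR adjusted p = 8.65e-06) and LAMB3 1.81-fold (log2 0.86 ± 0.0598, edgeR adjusted p = 3.96e-07). ITGA5 rose by 0.57, LAMA1 by 0.52, and ITGB8 fell by 1.00 on the log2 scale.

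**Figure D5:**
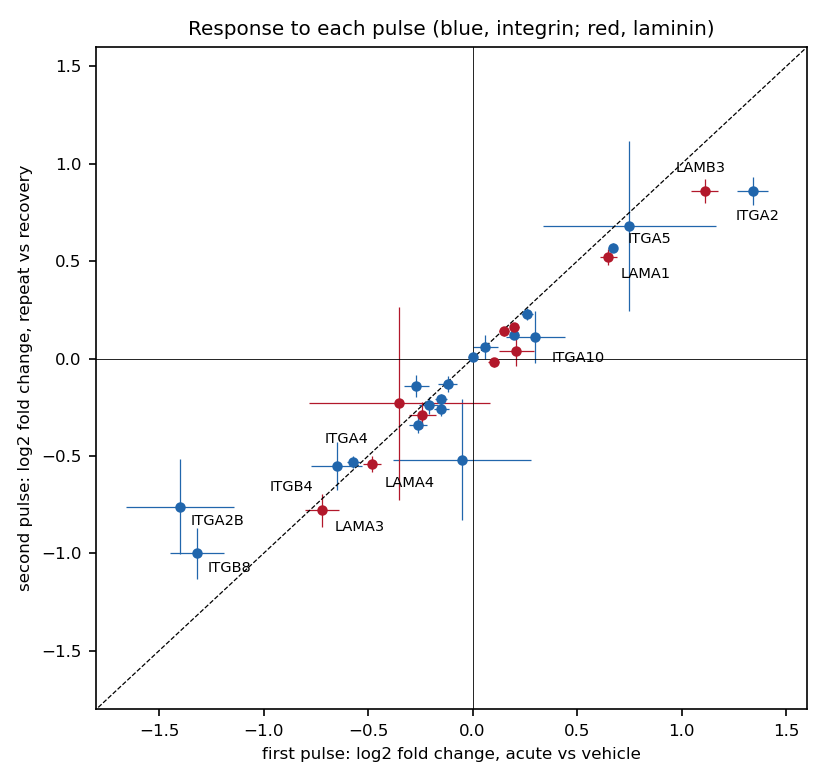
Log2 fold change with the second pulse (repeat against recovery) against that with the first (acute against vehicle), with standard errors, for the tested members reported. The dashed line marks equal responses; ITGA2 (1.34, 0.86) lies below it.

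The difference between the pulses was tested as an interaction, repeat minus recovery against acute minus vehicle. It carries the same limit of time as repeat against recovery. With edgeR 0 of 30 members passed (0.651% of all genes did, 0.221% higher and 0.43% lower), and 6 had an unadjusted p under 0.05. DESeq2 called 5, ITGA2, ITGA3, ITGA5, LAMB3 and LAMC1, each with the smaller response to the second pulse, and limma on log2(TPM + 1) called 0. For ITGA2 the second response was lower than the first by 0.48 on the log2 scale, with a 95% interval for the difference from -0.72 to -0.24 (edgeR adjusted p = 0.12). ITGA2 passed in edgeR without recovery replicate 3 (log2 -0.39, adjusted p = 0.0293), and LAMC1 without repeat replicate 1 (adjusted p = 0.043). Recovery replicate 3 had the highest ITGA2 value of its group.

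Repeat against acute, both harvested at the end of a pulse, gave 6 members, 4 higher and 2 lower (4.2% of all genes, 1.77% higher and 2.43% lower), and 15 that did not overlap (20.3%). ITGA2 was above acute by 0.39 ± 0.0685 on the log2 scale (edgeR adjusted p = 0.0195) and LAMB3 by 0.24 ± 0.0573 (edgeR adjusted p = 0.0472). The ITGA2 call was lost without any 1 of the acute libraries or without repeat replicate 3 (adjusted p 0.0636 to 0.0731), and the LAMB3 call without any of the 6 libraries (0.0831 to 0.16). LAMA3 was below acute by 0.36 ± 0.0873 (edgeR adjusted p = 0.0161), which was lost without any acute library or repeat replicate 2 or 3 (0.0548 to 0.105). The other calls were ITGA6 (0.19), ITGB1 (0.08) and ITGB3 (-0.23). The count fell to 2 without acute replicate 1 or 2 or repeat replicate 2, and to 1 without acute replicate 3 or repeat replicate 3. Over all genes the calls went from 761 to 499, 377, 360, 337 and 430, in the same order.

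The genes that work with these receptors moved in both directions. Of 18 tested basement membrane partners of laminin, 7 rose and 8 fell with the first pulse, where 22.3% of all genes were called higher and 21.5% lower. AGRN, agrin, which links laminin to dystroglycan, rose 1.96-fold (log2 0.97 ± 0.0239, edgeR adjusted p = 4.62e-23), and COL4A4, a type IV collagen chain, fell (log2 -1.35 ± 0.125, edgeR adjusted p = 5.76e-10). In recovery 0 of the 18 were higher than vehicle and 8 were lower, COL4A4 among them (log2 -0.54), against 3.03% higher and 2.91% lower over all genes. Among 15 tested integrin ligands other than laminins and collagens, 9 rose and 3 fell, with the largest log2 changes in SPP1 (osteopontin, 0.91), CCN2 (connective tissue growth factor, 0.76) and TNC (tenascin-C, 0.67).

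Of 16 other laminin receptors and membrane partners, 7 rose and 5 fell with the first pulse. PLAUR, the urokinase receptor, rose by 0.65 ± 0.0294 on the log2 scale (edgeR adjusted p = 9.13e-17), and BCAM, a receptor for laminin α5, fell by 0.59 ± 0.0533 (edgeR adjusted p = 3.39e-10). Of 44 tested adhesion adaptors, 13 rose and 15 fell (22.3% and 21.5% of all genes). Apart from the weakly expressed FERMT1 (0.200 to 0.462 mean CPM), none of those changed by 0.5 or more with the first pulse. Of the 6 genes in the hemidesmosome list, 2 rose and 2 fell with the first pulse. In repeat against vehicle 3 of the 6 were higher and 1 lower, where 23.4% of all genes were higher and 22.9% lower. In that comparison COL17A1 was higher (log2 1.07 ± 0.186, edgeR adjusted p = 2.21e-05) while ITGB4 was lower. The median log2 change with the first pulse was 0.09 for the basement membrane partners, 0.19 for the ligands, 0.01 for the other receptors and -0.04 for the adaptors, against 0 over all genes.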

How the data were processed

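RNA was poly(A)-selected and libraries were stranded and read as single ends, per the labels' protocols. Reads were processed with STAR 2.7.11a on GRCh38.p13, featureCounts 2.0.3, Trim Galore 0.6.10, Picard 2.27.5, edgeR and cutadapt 4.3, per the submitters' processing notes. The labels' design text names GENCODE 41 as annotation. Whether counting used strand is not given in the sources used here. Gene-level estimated counts without scaling were deposited by the authors, of which 25.49% of nonzero values were not whole, and so was a TPM table, scaled by gene length. The lengths implied by both tables varied between libraries for some genes, which changes fold changes between the scales.

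Estimated counts were rounded and tested with edgeR 4.0.16 (R 4.3.3; TMM scaling, filterByExpr, robust quasi-likelihood fit of all 12 libraries with a mean per group) over 18119 genes, with Benjamini-Hochberg adjustment and calls at an adjusted p under 0.05, two-sided. CPM are TMM-scaled. The fit has no paired term, since libraries with the same replicate number did not deviate together. Alternatives were DESeq2 1.42.0, limma 3.58.1 on log2(TPM + 1), a gene length offset, no count filter, upper quartile scaling, only the 2 groups compared, a replicate block and leaving out each library. The test was checked on simulated data.

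Gene names and coordinates came from GENCODE 44, in which 60463 identifiers had a symbol. Values of every library are given for the 11 members called with an absolute log2 fold change of at least 0.5 in some pairwise comparison. Partner genes are named by the same limit, at most 4 in each direction per list and comparison. The values of 1 member and 1 marker gene are not reported here, although both are in the counts. The members and lists were chosen with earlier results of these data known. The replicates are described as independent biological ones, and p-values measure the spread among these libraries. The median squared difference between replicates was 1.78 to 2.99 times that of Poisson noise, so none was counted as a duplicate library. This measure cannot tell independent cultures from parallel wells of the same culture. The common biological coefficient of variation in the fit was 2.67%.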

Additional observations from a re-analysis of the deposited data

How the results depend on the processing

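Of 51 pairwise calls among the 11 members described in full, 42 kept their direction and call under every alternative without a length adjustment, and 32 under all alternatives. Counts of members called moved as follows. With a gene length offset, acute against vehicle fell from 23 to 11, recovery against vehicle from 14 to 2, repeat against recovery from 21 to 12 and repeat against acute from 6 to 0. Over all genes, calls in the same comparisons fell from 7938 to 4417, 1076 to 178, 7546 to 3971 and 761 to 10. With limma on log2(TPM + 1) the member counts in those comparisons were 11, 2, 10 and 0, beside 4344, 118, 3824 and 6 over all genes. Repeat against vehicle fell from 23 to 13 members, and from 8391 to 4651 over all genes. DESeq2 gave 9 for recovery against vehicle and 5 for the interaction (863 and 215 over all genes, against 1076 and 118 in the main fit). With no count filter, repeat against acute gave 10 and the interaction 1 (967 and 333 over all genes, against 761 and 118 in the main fit). With the replicate block, the interaction gave 2 members, ITGA2 (log2 -0.48, adjusted p = 0.0384) and LAMB3 (log2 -0.26, adjusted p = 0.0446), and the other comparisons gave 8 to 24; same-numbered libraries had correlations from -0.082 to 0.076, so the numbers are not treated as pairs. Leaving out 1 library at a time gave 22 to 23 members for acute against vehicle, 5 to 12 for recovery against vehicle, 22 to 24 for repeat against vehicle, 21 to 23 for recovery against acute, 19 to 20 for repeat against recovery, 1 to 9 for repeat against acute and 0 to 1 for the interaction. Directions reversed, without passing the test, for LAMA3 in recovery against vehicle (0.59 with the length offset, 0.36 on TPM), LAMA2 in acute against vehicle (0.01 on TPM) and LAMA2 in recovery against acute (-0.17 with the length offset, -0.13 on TPM). The cause was not tested. Over all genes, no scaling moved the median log2 change by over 0.1, but of the genes called in recovery against vehicle 64.4% were higher on TPM against 51% in counts. Depth limits ITGA2B, ITGA8, ITGAX, LAMC3 and the 7 untested members.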

Other observations

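ITGA1 and ITGA2 are 30.1 kb apart on the same strand of chromosome 5. In counts, ITGA1 fell by 0.21 on the log2 scale with the first pulse while ITGA2 rose by 1.34. With the gene length offset the ITGA1 fall was 0.09 and was not called (edgeR adjusted p = 0.737). Smooth muscle markers, all 5 of which passed the filter, had a summed TPM of 642 to 660 in vehicle, 780 to 832 in acute, 588 to 605 in recovery and 699 to 717 in repeat. Against vehicle, 2 of the 5 were higher and 1 lower in acute (median log2 -0.11), 0 higher and 3 lower in recovery (median -0.21), and 2 higher and 2 lower in repeat (median -0.34). Of all genes, 22.3%, 3.03% and 23.4% were higher and 21.5%, 2.91% and 22.9% lower, in the same order.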
